A study of Mus musculus with 8 samples.

Results

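The comparison set the RNA library labelled IL4+G-1 against the library labelled G-1, both from primary mouse bone marrow-derived macrophages (BMDMs) of wild-type genotype. These are 2 of the 8 libraries of the series. G-1 is an agonist of GPER1, a membrane receptor for estrogen. Both libraries carried G-1 (10 μmol/L), so the labelled difference between them was IL-4 (20 ng/ml). The methods describe cells differentiated until day 7 in medium with L929 cell supernatant and then treated for 48 h. The G-1 library stood for unpolarized (M0) macrophages with G-1 and the IL4+G-1 library for IL-4 (M2) macrophages with G-1. Age and sex of the mice were not given for these cultures in the sources used here. RNA of 3 samples was pooled into 1 library per group, so there is 1 library a side, no replicate check and no p-value. The methods list both M0 libraries under 1 sequencing set and both IL-4 libraries under another, so the IL-4 label and the set cannot be told apart. Each fold is a difference between these pooled libraries, and fewer cells of a type and less RNA per cell cannot be told apart in it.

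The deposited values were whole-number read counts for 22173 gene symbols. They summed to 37000838 in the G-1 library and to 38681822 in the IL4+G-1 library. Genes were taken as measured from 20 counts upward in the better counted library, and 11233 genes were. The fold of a gene is the ratio of its counts after TMM scaling, a scaling that centres the bulk of genes, and its 95% interval is the exact binomial interval of the 2 counts. The intervals cover counting error only. In what follows the count of the G-1 library comes first and that of the IL4+G-1 library second, and a range in brackets after a fold is this interval.

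IL-4 binds a receptor made of IL-4Rα and either the common γ chain or IL-13Rα1. The JAK kinases on these chains phosphorylate STAT6, which enters the nucleus and binds palindromic sites in the promoters and enhancers of its target genes. In mouse macrophages these targets include Arg1 (arginase), Retnla and Chil3 (secreted effector proteins), Ccl17, Ccl22 and Ccl24 (chemokines), Mgl2 and Clec10a (lectins), Mrc1 (the mannose receptor CD206) and the transcription factor genes Egr2 and Irf4. SOCS proteins and phosphatases end the signal.

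The label was first checked against these genes, most of which had few or no counts in either library. Of 16 genes known to respond to IL-4 in macrophages, 11 had fewer than 20 counts in both libraries, and their highest count in either library was 15. Retnla had 0 and 0 counts and Ccl17 0 and 0. For a gene at 0, a floor of 3 counts is the limit that the depth allows. Arg1 had 0 and 4 counts, Ccl22 0 and 1, Chil3 6 and 9, Ccl24 1 and 0, Mgl2 15 and 2, Irf4 10 and 5 and Cish, the STAT-induced feedback inhibitor, 14 and 14. Among the 5 measured genes, Ch25h, the cholesterol 25-hydroxylase, was higher and Egr2 was lower, and Mrc1, Tgm2 and Clec10a lay within 2-fold. Most of the listed IL-4 response genes were thus under 20 counts in the library labelled IL4+G-1, which is called by its label throughout. The library labelled IL4, without G-1, had 7 counts of Arg1, 0 of Retnla and 0 of Ccl17. By qPCR, the paper reported higher Mrc1, Tgfb1, Retnla and Il10 in BMDMs after IL-4 without G-1. It reported significantly less RNA of the same genes when G-1 was added to IL-4. Whether the cells of these libraries responded to IL-4 was not tested.

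**Figure D1:**
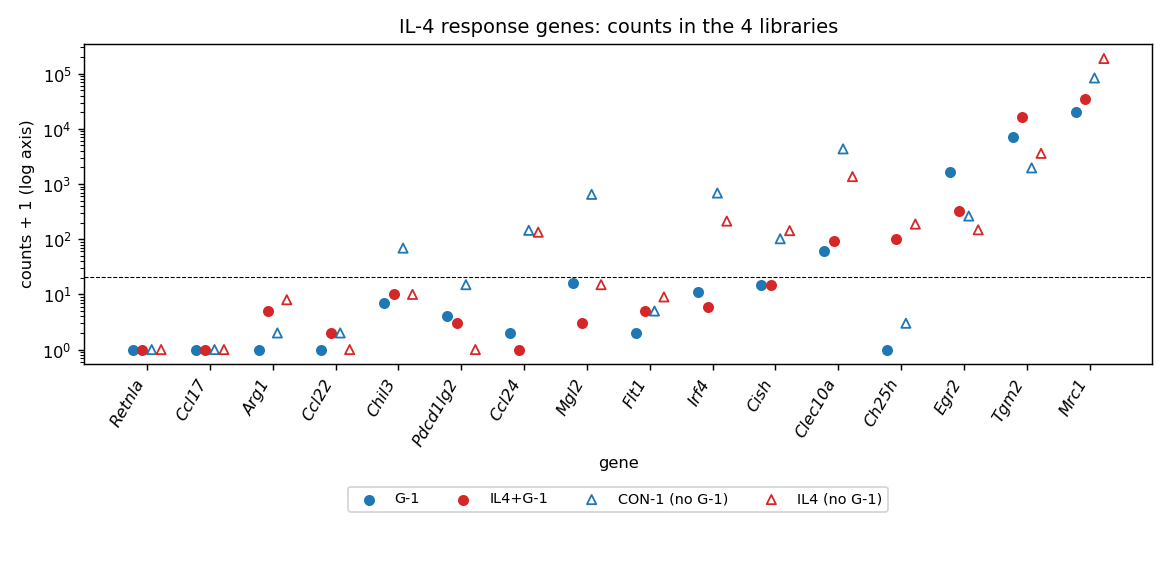
Counts plus 1 (log axis) of 16 genes known to respond to IL-4, in the G-1 and IL4+G-1 libraries (filled circles) and in the CON-1 and IL4 libraries without G-1 (open triangles); each symbol is 1 pooled library and the dashed line marks 20 counts. Retnla and Ccl17 are at 0 counts in all 4 libraries, and 11 of the 16 genes are under the line in both libraries with G-1.

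The promoters of several genes of alternative activation carry the letters of a STAT6 site, and the upstream stretches with these letters are shown here. The motif searched was TTCNNNNGAA on both strands, in RefSeq promoter windows of GRCm38.p6. It was present in 2164 of all 27025 genes with a window (8.01%) and in 7 of 25 alternative activation genes with one. A match is a description of the letters and not a shown binding site. In 6 of these 7 the match lay upstream of the start site. Among IL-4 receptor genes and STAT6-linked factors, upstream matches lay at Tfeb, which was lower, and at Tfec and Inpp5d, both within 2-fold. The stretches below lie upstream of the start site and are written 5′ to 3′ on the gene's strand, with the motif in capitals.
Retnla, chr16:48842444-48842493, plus strand: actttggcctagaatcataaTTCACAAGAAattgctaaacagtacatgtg
Ccl17, chr8:94810279-94810328, plus strand: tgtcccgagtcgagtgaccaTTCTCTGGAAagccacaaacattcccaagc
Pdcd1lg2, chr19:29410817-29410866, plus strand: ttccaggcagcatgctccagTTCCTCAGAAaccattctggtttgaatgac
Il1rn, chr2:24345150-24345199, plus strand: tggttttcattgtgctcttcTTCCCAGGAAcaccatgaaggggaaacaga
Itgax, chr7:128129403-128129452, plus strand: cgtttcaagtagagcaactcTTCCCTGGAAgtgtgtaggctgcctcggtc
Clec7a, chr6:129472881-129472930, minus strand: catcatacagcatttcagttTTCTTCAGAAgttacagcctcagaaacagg
Retnla and Ccl17 had no counts in either library, and Pdcd1lg2, the PD-1 ligand PD-L2, had 3 and 2. Il1rn, the antagonist of the IL-1 receptor, had 13887 and 2426 counts and was 7.31-fold lower [7.01 to 7.64]. Itgax, the integrin CD11c, had 2625 and 890 counts and was 3.77-fold lower [3.49 to 4.07], and Clec7a, the β-glucan receptor Dectin-1, had 10557 and 6243 counts and was 2.16-fold lower [2.09 to 2.23]. Retnla, Ccl17 and Pdcd1lg2 were under 20 counts in both libraries and have no fold. Across all genes called higher, 7.76% of those with a window held the motif, and across those called lower 7.53%, against 6.61% of measured genes.

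The cells of both libraries carried the RNA of macrophages. Adgre1, which encodes F4/80, had 21689 and 27215 counts, Csf1r 56584 and 56217 and Cd68 70500 and 66488. Markers of other cells the culture could hold were mostly absent. Of 97 such markers in 10 lists, 38 had 0 counts in both libraries and 14 were measured. The defining genes of T cells (Cd3e, Cd3d), B cells (Ms4a1), mast cells (Mcpt4, Cpa3) and neutrophils (Ly6g) were at 0 in both. The 9 markers that reached 100 counts were Cd28, Cd4, Cd22, Ccr3, Csf3r, Mmp8, F13a1, Kdr and Vwf. Their part in the results below was not tested. The T and NK cell list summed to 218.8 and 70.6 CPM, mostly Cd28 (7881 and 2712 counts). The fibroblast list summed to 0.595 and 2.4 CPM (counts scaled to a common total), and Col1a1 was at 0 in both libraries. The endothelial list summed to 249.7 and 60.4 CPM, almost all of it Vwf and Kdr, with Cldn5 and Emcn at 0.

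At least a 2-fold difference was found for 1439 of the measured genes. Of these, 753 were higher in the library labelled IL4+G-1 (6.7% of the genes measured) and 686 were lower (6.11%). At 10-fold or more, 59 were higher and 66 lower. The whole interval lay past 2-fold for 834 genes. The median log2 fold of all measured genes was 0.03. With the library totals in place of TMM that median rose by 0.29, and 1303 genes were then higher and 450 lower, so the share of higher genes among the calls was 74.3% in place of 52.3%. Directions below are therefore relative to the bulk of genes. Genes just at the border were Cep83 at 2.0-fold higher inside it and Stx11 at 2.0-fold lower outside it.

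**Figure D2:**
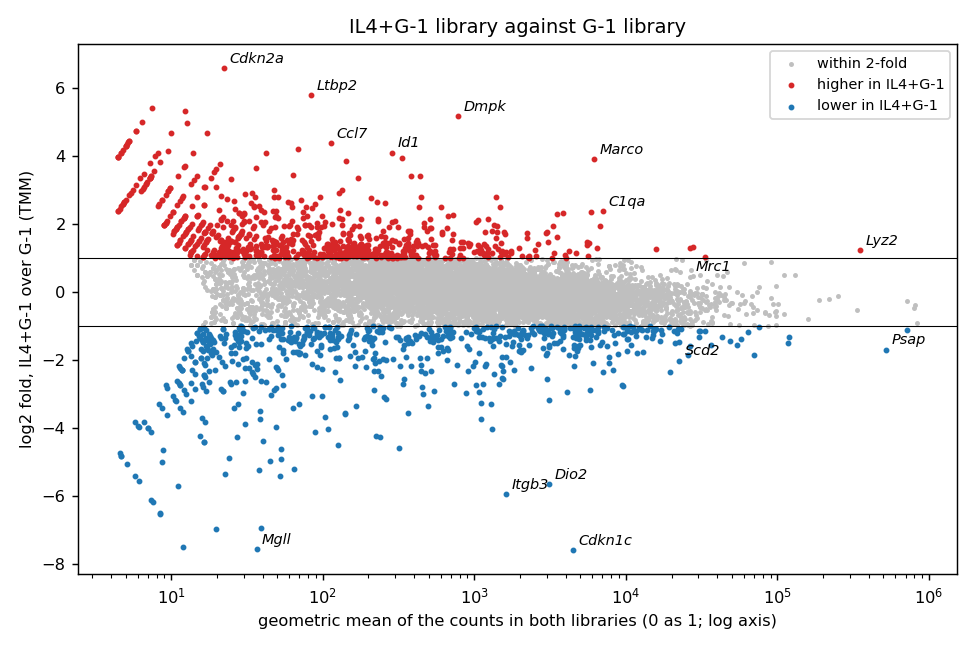
Log2 fold of the IL4+G-1 library over the G-1 library after TMM scaling (vertical) against the geometric mean of the counts in both (horizontal, log axis); each dot is 1 of 11233 measured genes and the lines mark 2-fold. Coloured dots are the 753 genes higher and the 686 lower, with Cdkn1c at -7.59 and Cdkn2a at 6.59 at the ends.

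Of the genes with the 20 largest folds downward, Cdkn1c, Dio2 and Itgb3 were the best counted in the G-1 library. Cdkn1c, which encodes the CDK inhibitor p57 (chromosome 7, 143458339 to 143461059 of GRCm38.p6), had 54709 and 364 counts and was 192-fold lower [173 to 213]. Without G-1 it had 421 counts in the CON-1 library and 20 in the IL4 library. The G-1 library thus stood far above the other 3 for this gene. Dio2, the deiodinase that activates thyroid hormone, had the same order, with 19435 and 495 counts (50.2-fold lower, 45.9 to 55) beside 51 and 15 without G-1. Itgb3, the integrin β3 subunit (chromosome 11, 104608000 to 104670476 of GRCm38.p6), had 11198 and 233 counts and was 61.4-fold lower [53.9 to 70.2], beside 146 and 59 without G-1.

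Other genes with large folds were lower to a few counts. Mgll, the lipase that breaks down monoacylglycerols, had 445 and 3 counts and was 189.5-fold lower [64.4 to 923], with an interval as wide as so few counts allow. Slc6a12, a betaine and GABA transporter, had 141 and 1 counts and was 180.2-fold lower [31.8 to 7166]. Slco2b1, an organic anion transporter, had 194 and 2 counts (124-fold lower, 33.9 to 1031), and Lat, an adaptor of immune receptor signaling, had 382 and 4 (122-fold lower, 47.3 to 450.2). All 4 genes were under 5 counts in the IL4+G-1 library, so only the order of size of their folds is known. Clec2i, a lectin-like gene, was at 0 there against 122 counts and was at least 52-fold lower on a floor of 3 counts.

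F7, F10 and Vcam1 were also among the 20 that were lowest. In a list of coagulation genes chosen after values were seen, 11 were measured. Of these, 2 were higher (18.2%) and 4 were lower (36.4%), against 6.7% and 6.11% of all genes. Their median log2 fold was -0.06, which turned to 0.23 with library totals. F7, coagulation factor VII, had 300 and 9 counts and was 42.6-fold lower [22.1 to 94.1]. F10, coagulation factor X, had 533 and 30 counts and was 22.7-fold lower [15.7 to 34]. Vcam1, an adhesion molecule that binds integrins of leukocytes, had 115 and 5 counts and was 29.4-fold lower [12.2 to 92.2]. Cd4, the T cell coreceptor that some myeloid cells express, had 204 and 7 counts (37.2-fold lower, 17.7 to 93.8), while Cd3e was at 0 in both libraries. The remaining genes of the 20 were Cacna1b, B3gnt5, Zfp462, Ly75, Ceacam19, Mamdc2, Zfp827 and Slamf8, with log2 folds from -5.34 to -4.28. Mamdc2 and Slamf8 were the best counted of these, at 1371 and 73 and 925 and 61.

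Among genes that were higher, the tumor suppressor gene Cdkn2a led. Cdkn2a, which encodes p16 and p19ARF (chromosome 4, 89274473 to 89294619 of GRCm38.p6), had 2 and 246 counts and was 96.3-fold higher [26.4 to 799], with an interval set by the 2 counts of the G-1 library. The neighbouring inhibitor gene Cdkn2b had 31 and 149 counts and was 3.76-fold higher [2.54 to 5.73]. Ltbp2, a matrix protein of the latent TGF-β binding family (chromosome 12, 84783212 to 84876558 of GRCm38.p6), had 10 and 705 counts and was 55.2-fold higher [29.8 to 116]. Both Cdkn2a and Ltbp2 were also higher in the IL4 library (462 and 306 counts) than in the CON-1 library (16 and 2). Kap, the kidney androgen-regulated protein gene, had 0 and 153 counts and was at least 39.9-fold higher on the floor of 3 counts.

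Other leading genes that were higher were better counted. Marco, a scavenger receptor for bacteria and particles, had 1417 and 27044 counts and was 14.9-fold higher [14.2 to 15.8]. Dmpk, the myotonic dystrophy kinase, had 115 and 5306 counts and was 36.1-fold higher [30 to 43.8], and its neighbour Dmwd had 119 and 1616 (10.6-fold higher, 8.82 to 12.9). Dmwd and Dmpk lie next to each other on chromosome 7 (19076112 to 19082778 and 19083646 to 19093821), so reads that run from one into the other would not be told apart. Trem1, a receptor that amplifies inflammatory signals, had 75 and 1483 counts and was 15.5-fold higher [12.3 to 19.8]. Inpp4b, a phosphoinositide phosphatase, had 33 and 613 (14.5-fold higher, 10.2 to 21.3). Id1, an inhibitor of helix-loop-helix factors, had 61 and 1339 counts and was 17.2-fold higher [13.3 to 22.6]. The rest of the 20 were Ccl7, Adgb, Gfra4, Epha2, Pald1, Ctla2b, Cxcl2, Nupr1, Lama3, Pcdhac2 and Klra2, with log2 folds from 2.91 to 4.39. Ctla2b and Klra2 have close relatives in the genome, between which the counting could have split reads.

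**Figure D3:**
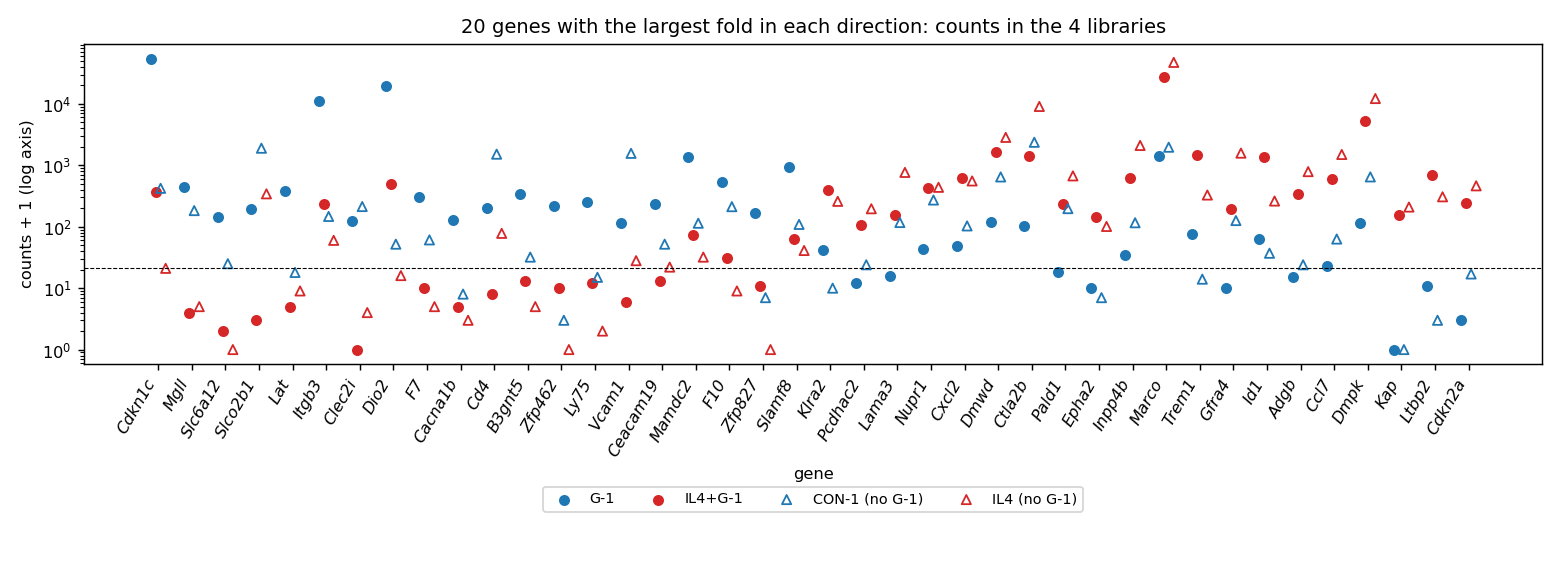
Counts plus 1 (log axis) of the 20 largest folds each way (minimum 100 counts), ordered from the lowest to the highest fold of IL4+G-1 over G-1, in the libraries with G-1 (filled circles) and without G-1 (open triangles); each symbol is 1 pooled library and the dashed line marks 20 counts. Cdkn1c, Itgb3 and Dio2 stand out in the G-1 library, and Cdkn2a, Ltbp2 and Kap are high in both libraries with IL4 in their label.

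The receptor chain and the kinases of the IL-4 pathway were well counted in both libraries. Il4ra, the receptor's α chain, had 2624 and 3766 counts (log2 fold 0.17). Stat6 had 10684 and 12020 counts (log2 fold -0.18), and Jak1 11633 and 12711 and -0.23. The RNAs of these receptor parts thus lay within 2-fold. Of 25 genes of the IL-4 receptor list, 23 were measured. Among them 1 was higher (4.35%) and 2 were lower (8.7%), near the 6.7% and 6.11% of all genes. Their median log2 fold was -0.33, against 0.03 over all genes. Socs1, the feedback inhibitor of JAK kinases that cytokines induce, had 70 and 17 counts and was 5.26-fold lower [3.06 to 9.54]. Jak3, the kinase bound to the common γ chain, had 759 and 445 counts and was 2.18-fold lower [1.94 to 2.46]. Socs2, another feedback inhibitor, had 8 and 35 counts and was 3.42-fold higher [1.56 to 8.54]. The other members ran from -0.87 (Il13ra1) to 0.38 (Socs3, with 15 and 25 counts). The common γ chain gene Il2rg lay at -0.59, Irs2, an adaptor of the receptor, at -0.06, and the phosphatase genes Ptpn6 and Ptpn11 at 0.37 and -0.54.

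Transcription factors linked to STAT6 were lower or within 2-fold. Of 17, 16 were measured, 0 were higher and 6 were lower (37.5%, against 6.11% of all genes). Their median log2 fold was -0.39. After length and GC trends were removed, 4 were lower and the median was -0.22. Egr2, a zinc finger factor of the IL-4 program, had 1644 and 323 counts and was 6.5-fold lower [5.77 to 7.35]. Pparg, a nuclear receptor for fatty acid ligands, had 2037 and 873 counts and was 2.98-fold lower [2.75 to 3.23]. Kdm6b, a histone demethylase, had 676 and 346 counts and was 2.5-fold lower [2.19 to 2.85]. These 3 genes were each lower by more than their counting error. Bhlhe40 and its paralog Bhlhe41, repressors of the helix-loop-helix class, were 2.71-fold lower [2.51 to 2.93] and 2.15-fold lower [2.1 to 2.2], and Tfeb, a factor of lysosomal genes, was 2.29-fold lower [2.14 to 2.45]. Irf4 was not measured. The remaining members ran from -0.48 (Ppargc1b) to 0.48 (Nr4a1), with Myc at -0.24, Klf4 at -0.20 and Cebpb at -0.39.

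Genes of alternative activation did not move in 1 direction. Of 40 listed genes, 23 were measured and 17 were not, 6 of these at 0 in both libraries. Among the 23, 2 were higher (8.7%) and 7 were lower (30.4%), against 6.7% and 6.11% of all genes. Their median log2 fold was 0.14. The sign of that median turned with a minimum of 100 counts (-0.05) and after removal of length and GC trends (-0.05). Ch25h was at 0 counts in the G-1 library and at 98 in the IL4+G-1 library, at least 25.6-fold higher, and Folr2, a folate receptor of tissue macrophages, had 2785 and 7929 counts and was 2.23-fold higher [2.13 to 2.33]. Dcstamp, a fusion protein gene, had 115 and 13 counts and was 11.3-fold lower [6.35 to 21.9]. Atp6v0d2, a proton pump subunit, had 21589 and 4121 counts and was 6.69-fold lower [6.47 to 6.92]. Matk, a kinase gene, had 606 and 171 counts and was 4.53-fold lower [3.82 to 5.4]. The lower members thus included genes of cell fusion as well as Il1rn, Itgax and Clec7a. Tgfb1, the profibrotic growth factor TGF-β1, had 20625 and 10927 counts and was 2.41-fold lower [2.36 to 2.47].

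Of the usual M2 marker genes, Mrc1 had 19932 and 34853 counts (log2 fold 0.45), Il10 5 and 5 counts and Arg1 0 and 4. Mrc1 was thus abundant and within 2-fold, and the other 2 were under 20 counts. Msr1 and Stab1, scavenger receptors, had log2 folds of 0.96 and 0.65. Tgm2, a transglutaminase, had 6995 and 16509 counts (log2 fold 0.89). Mmp12, the macrophage elastase, was among the most abundant members with 206290 and 230331 counts and lay at -0.19. Members between these were Cd36 (-0.58), Cd83 (-0.30), Slc7a2 (0.10), Igf1 (0.14), Ptgs1 (0.16), Cd200r1 (0.23), Clec10a (0.29), Mmp13 (0.40) and Cd163 (0.55) on the log2 fold scale.

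Chemokine ligand genes past 2-fold were higher in the library labelled IL4+G-1, with the exception of Ccl5. Of 16 measured ligands, 7 were higher (43.75%) and 1 was lower (6.25%), against 6.7% and 6.11% of all genes. Their median log2 fold was 0.82. Of the 7 higher ligands, 3 lie in 1 cluster on chromosome 11 and attract monocytes. Ccl2 had 149 and 1328 counts and was 6.98-fold higher [5.88 to 8.32], Ccl7 had 22 and 588 (20.9-fold higher, 13.7 to 33.6) and Ccl12 had 6 and 65 (8.48-fold higher, 3.69 to 23.9). Cxcl2, which attracts neutrophils, had 47 and 612 counts and was 10.2-fold higher [7.57 to 14]. Pf4, a platelet-type chemokine that macrophages also make, had 1774 and 6918 counts and was 3.05-fold higher [2.9 to 3.22]. Ccl5, which attracts T cells, had 32 and 12 counts and was 3.41-fold lower [1.71 to 7.27]. Among 15 measured receptors of chemokines and chemoattractants, 4 were higher (26.7%) and 1 was lower (6.67%), against 6.7% and 6.11% of all genes. The formyl peptide receptor genes Fpr1 and Fpr2 had 10 and 95 and 5 and 54 counts and were 7.43-fold higher [3.87 to 16] and 8.45-fold higher [3.41 to 27.1]. P2ry12, a receptor for ADP, had 19 and 128 counts and was 5.27-fold higher [3.24 to 9.04], and Ccr1, a receptor for several CC chemokines, had 1163 and 578 counts and was 2.57-fold lower [2.33 to 2.85].

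Of 16 measured M1 markers, 6 were higher (37.5%) and 1 was lower (6.25%), against 6.7% and 6.11% of all genes. Their median log2 fold was 0.46. Tnf, the inflammatory cytokine TNF-α, had 173 and 775 counts and was 3.51-fold higher [2.97 to 4.16]. Cd80, a costimulatory ligand of T cells, had 229 and 789 counts and was 2.7-fold higher [2.32 to 3.14]. The other higher members were Marco, Fpr1, Fpr2 and Cd38. Interferon-stimulated genes had a median log2 fold of 0.18, and 5 of 39 were higher (12.8%, against 6.7% of all genes) and 0 lower. The largest fold there was that of Ifi27l2a (264 and 1003 counts, 2.97-fold higher, 2.59 to 3.42), followed by Oas2, an enzyme that activates RNase L (223 and 787 counts, 2.76-fold higher, 2.38 to 3.22). Of 29 genes of Toll-like receptors and NF-κB, 3 were higher (10.3%) and 1 was lower (3.45%), near the 6.7% and 6.11% of all genes. Nfkbiz, an inducible cofactor of NF-κB, had 75 and 427 counts and was 4.46-fold higher [3.48 to 5.77], and Tlr9, the receptor for CpG DNA, had 459 and 118 counts and was 4.97-fold lower [4.05 to 6.14]. Il1r1, the IL-1 receptor, had 22 and 1 counts, too few for more than a direction, and Il21r, the IL-21 receptor, had 225 and 1620 and was 5.63-fold higher [4.9 to 6.51].

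The 4 genes of MHC class II presentation past 2-fold were lower in the library labelled IL4+G-1. Of 11 measured, 0 were higher and 4 were lower (36.4%, against 6.11% of all genes). Their median log2 fold was -0.51. H2-Aa, the α chain of I-A, had 124 and 12 counts and was 13.2-fold lower [7.29 to 26.2]. H2-Ab1, the β chain, had 190 and 51 (4.76-fold lower, 3.48 to 6.62), and Cd74, the invariant chain, had 764 and 149 (6.55-fold lower, 5.49 to 7.86). H2-Eb1 had 114 and 18 counts and was 8.09-fold lower [4.9 to 14.1]. In the CON-1 library without G-1, Cd74 had 27636 counts. Of 17 measured checkpoint and costimulatory ligands, 4 were higher (23.5%, against 6.7% of all genes). Only 1 was lower (5.88%), near the 6.11% of all genes. Cd274, which encodes PD-L1, had 4482 and 2339 counts and was 2.45-fold lower [2.33 to 2.58], while Icosl, the ligand of ICOS, had 98 and 315 and was 2.52-fold higher [2.0 to 3.19].

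Several complement genes were higher. Of 18 measured genes of complement and Fc receptors, 5 were higher (27.8%, against 6.7% of all genes) and 1 was lower (5.56%, against 6.11%). Their median log2 fold was 0.23. In the pair without G-1, 0 of 22 were higher and 8 were lower. The 3 chains of C1q start the classical pathway. C1qa had 2745 and 18222 counts and was 5.2-fold higher [4.99 to 5.41], C1qb had 20495 and 53508 (2.04-fold higher, 2.01 to 2.08) and C1qc had 15569 and 49796 (2.5-fold higher, 2.46 to 2.55). Of 29 measured macrophage markers, 3 were higher (10.3%) and 1 was lower (3.45%), near the 6.7% and 6.11% of all genes. Lyz2, the macrophage lysozyme, had 201537 and 607101 counts and was 2.36-fold higher [2.35 to 2.37]. Maf, a transcription factor of tissue macrophages, had 3042 and 10061 (2.59-fold higher, 2.49 to 2.7). Aif1, which encodes the actin-binding protein IBA1, had 178 and 665 (2.92-fold higher, 2.47 to 3.47). In the CON-1 and IL4 libraries, Lyz2 was the most abundant gene (2.73% and 3.59% of their counts), and Aif1 had 2527 and 3263 counts. Clec4n, the lectin Dectin-2 and no member of that list, had 2284 and 14992 counts and was 5.14-fold higher [4.92 to 5.37]. The lower marker, Axl, a receptor that binds dying cells, had 739 and 160 counts and was 5.9-fold lower [4.97 to 7.05].

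Lipid genes past 2-fold were lower, with the exception of Nr1d1 among the LXR targets. Of 24 measured genes of cholesterol biosynthesis, 0 were higher and 6 were lower (25%, against 6.11% of all genes). Their median log2 fold was -0.51. All 24 folds were below 0 on the log2 scale. After length and GC trends were removed, 3 of the 24 were lower and the median was -0.45. Sqle, the squalene epoxidase, had 6157 and 3479 counts and was 2.26-fold lower [2.17 to 2.36]. Mvd, Lss and Srebf2 were also lower, at log2 folds of -1.15, -1.06 and -1.02. The desaturase genes showed the largest folds of the lipid lists. Scd1 had 3573 and 343 counts and was 13.3-fold lower [11.9 to 14.9], Scd2 had 40057 and 12629 (4.05-fold lower, 3.97 to 4.14) and Fads2 had 467 and 59 (10.1-fold lower, 7.7 to 13.5). Scd1 and Scd2 are close relatives, and reads may have been divided between them. Lpl, the lipoprotein lipase, had 174280 and 79085 counts and was 2.82-fold lower [2.79 to 2.84], and Abcg1, a cholesterol exporter, had 28360 and 17153 and was 2.11-fold lower [2.07 to 2.15]. Of 30 measured genes of fatty acids and PPAR, 0 were higher and 6 lower (20%, against 6.11% of all genes). Of 18 LXR targets, 1 was higher (5.56%, against 6.7%) and 4 were lower (22.2%, against 6.11%). With length and GC trends removed, 3 of the 30 and 3 of the 18 were lower, beside 546 of all 11025 genes.

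Of 35 lysosomal genes, 31 lay within 2-fold, 0 were higher and 4 were lower (11.4%, against 6.11% of all genes). Their median log2 fold was -0.34. After length and GC trends were removed, 3 were lower. Psap, the precursor of the saposins and one of the most abundant genes of both libraries, had 829374 and 326189 counts and was 3.25-fold lower [3.24 to 3.26]. Ctsk, the protease cathepsin K, had 780 and 360 counts and was 2.77-fold lower [2.44 to 3.15]. Gaa, the acid α-glucosidase, was the fourth lower member. Genes of osteoclasts and of macrophage fusion overlap with this list. Of 16 measured, with a median log2 fold of -0.78, 0 were higher and 7 were lower (43.75%, against 6.11% of all genes). Besides Itgb3, Dcstamp, Atp6v0d2 and Ctsk these were Src, a kinase that osteoclasts need to resorb bone (2593 and 508 counts, 6.52-fold lower, 5.93 to 7.19), Siglec15 (31 and 5 counts) and Tm4sf19. Of 25 measured NRF2 and iron genes, 1 was higher (4%) and 3 were lower (12%), against 6.7% and 6.11% of all genes. Fth1, the ferritin heavy chain, had 932349 and 554455 counts and was 2.15-fold lower [2.14 to 2.16], and Slc40a1, the iron exporter ferroportin, had 14879 and 46996 and was 2.47-fold higher [2.43 to 2.52].

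Proliferation genes lay within 2-fold. None of 30 S phase genes and none of 30 mitosis genes passed 2-fold in either direction, and their median log2 folds were 0.15 and -0.10, the second of which turned to 0.19 with library totals. Of the 60 ribosomal protein and respiratory chain genes, 0 passed 2-fold either. Of 21 cell cycle inhibitors and D cyclins, 4 were higher (19%) and 2 were lower (9.52%), against 6.7% and 6.11% of all genes. The other 15 lay within 2-fold. Beside the opposite folds of Cdkn1c and Cdkn2a, Ccnd1, the cyclin D1 gene, had 3028 and 14917 counts and was 3.86-fold higher [3.71 to 4.01], and Ccnd2 had 114 and 347 (2.38-fold higher, 1.92 to 2.97). In the stress list, 4 of 35 were higher (11.4%) and 1 was lower (2.86%), against 6.7% and 6.11% of all genes. Ddit3, the factor CHOP, had 609 and 1956 counts and was 2.51-fold higher [2.29 to 2.76], Nupr1 had 42 and 430 (8.01-fold higher, 5.83 to 11.3) and Phgdh, the first enzyme of serine synthesis, had 463 and 148 (4.0-fold lower, 3.32 to 4.84).

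MAPK genes mostly lay within 2-fold. Of 32 measured kinases of the MAPK cascades, 1 was higher (3.1%, against 6.7% of all genes) and 0 were lower. The higher one was Map2k6 (32 and 112 counts, 2.74-fold higher, 1.83 to 4.19). Of 22 measured DUSP phosphatases and MAPK inhibitors, 1 was higher (4.55%) and 3 were lower (13.6%), against 6.7% and 6.11% of all genes. Dusp6, the phosphatase that ERK induces and that acts on ERK, had 450 and 2487 counts and was 4.33-fold higher [3.91 to 4.79]. The lower ones were Dusp10 (167 and 81 counts), Dusp9 (437 and 225) and Dusp14 (29 and 15). Gper1, the receptor of G-1, had 0 counts in both libraries, and Esr2 had 0 as well. Esr1, the estrogen receptor α gene, had 58 and 54 counts (log2 fold -0.46), within its counting interval of no change.

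Of 22 measured growth factors linked to fibrosis, 5 were higher (22.7%) and 2 were lower (9.09%), against 6.7% and 6.11% of all genes. Their median log2 fold was 0.20, and it turned to -0.01 with a minimum of 100 counts. F13a1, the coagulation factor XIII A chain that macrophages make, had 205 and 1063 counts and was 4.06-fold higher [3.49 to 4.74]. Pdgfc, a PDGF ligand, had 132 and 356 counts and was 2.11-fold higher [1.72 to 2.6]. Tgfb1 and Plaur, the urokinase receptor (5365 and 2723 counts, 2.52-fold lower, 2.4 to 2.64), were the lower members. Adam19, a membrane protease, had 37 and 1 counts, and Mmp14, a membrane-bound metalloproteinase, had 153 and 429 and was 2.19-fold higher [1.82 to 2.66].

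**Figure D4:**
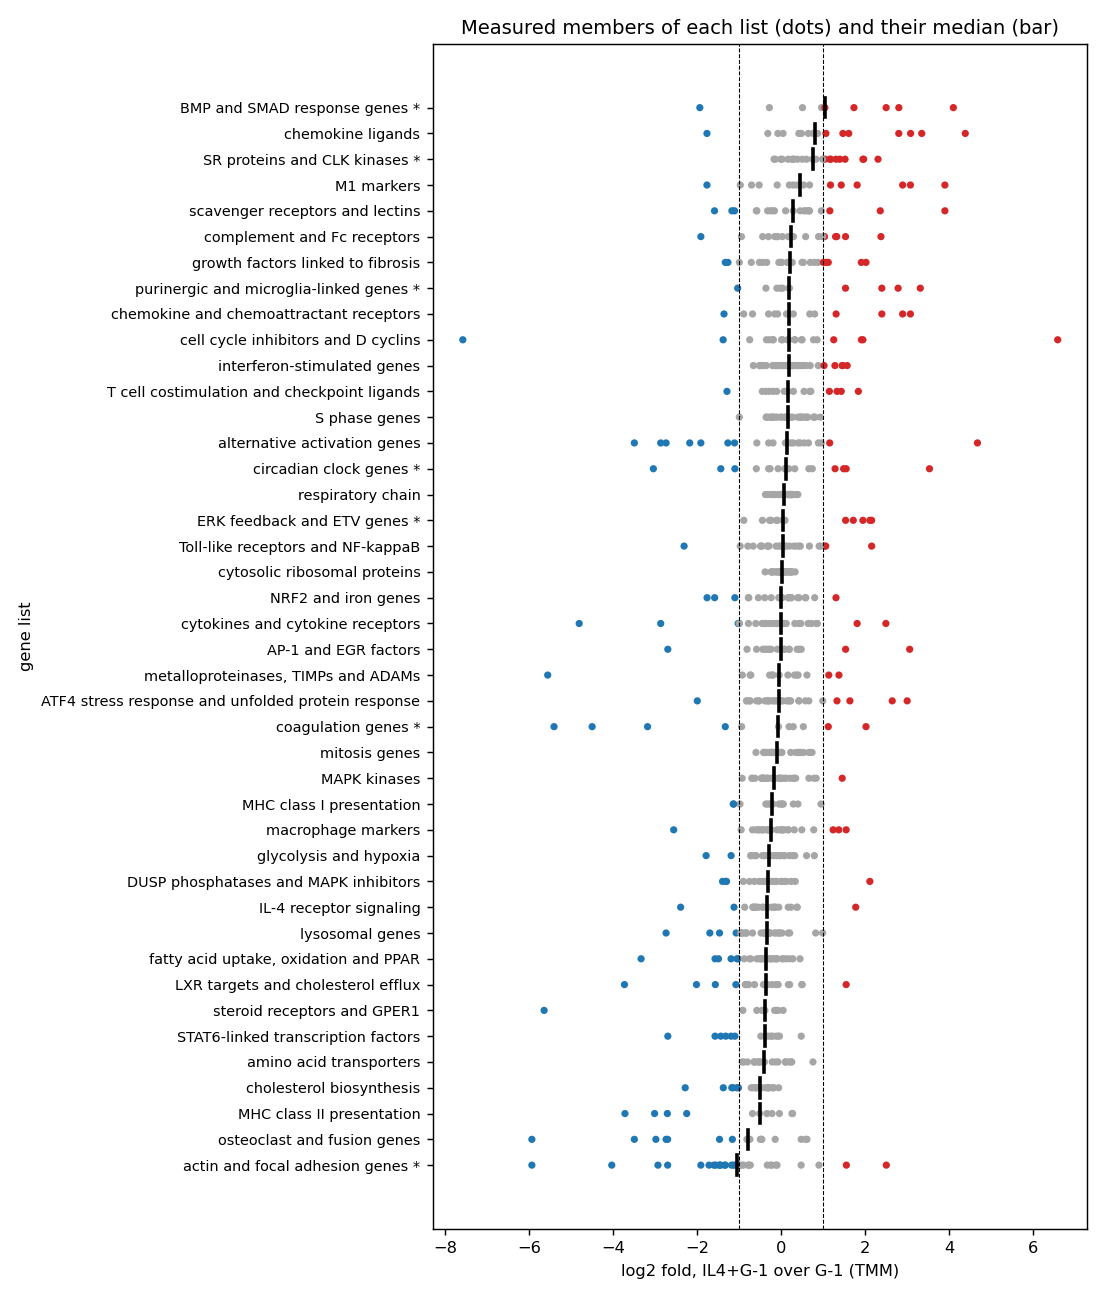
Log2 fold of IL4+G-1 over G-1 for each measured member (dots) of the gene lists other than those of other cell types and of zinc finger genes, with the median of each list as a black bar and dashed lines at 2-fold; red and blue dots are members at least 2-fold higher and lower, and lists with an asterisk were chosen after values were seen. Among the lists drawn, actin and osteoclast lists lie lowest by median, at -1.06 and -0.78, and BMP and SMAD response genes and chemokine ligands highest, at 1.04 and 0.82. The actin list and the BMP and SMAD list are among those chosen after values were seen, so their rank is a description only.

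The lists that follow were chosen after their values were seen and describe these libraries only. Genes of the actin cytoskeleton and of focal adhesions, which link actin to integrins, were mostly lower. Of 32, 18 passed 2-fold downward (56.25%, against 6.11% of all genes) and 2 upward (6.25%, against 6.7%). A log2 fold below 0 was found for 28 of the 32. Leaving out integrins, 15 of 23 were lower and 1 was higher. After length and GC trends were removed, 14 of the 32 were lower and 2 were higher. Vcl, the adhesion protein vinculin, had 4790 and 2014 counts and was 3.04-fold lower [2.88 to 3.2]. Tln1, the integrin activator talin, had 81848 and 35530 counts and was 2.94-fold lower [2.91 to 2.98]. Flna, the actin cross-linker filamin A, had 71156 and 33393 (2.72-fold lower, 2.69 to 2.76), Zyx, a LIM protein of adhesions, had 7663 and 2974 (3.29-fold lower, 3.16 to 3.44) and Vim, the intermediate filament vimentin, had 167855 and 85412 (2.51-fold lower, 2.49 to 2.53). These are among the better counted genes of the comparison, so counting error is small beside their folds. Actb, the actin β gene often used as a reference, had 183762 and 136211 counts (log2 fold -0.79). Itgal, the integrin of LFA-1, went the other way with 546 and 3960 counts and was 5.68-fold higher [5.19 to 6.22].

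Serum response factor controls many actin genes through the CArG box, whose letters on either strand were present in 2 of 23 members with a window, against 1.81% of all windowed genes. Both are shown, with the CArG letters in capitals, and both genes were lower.
Actg1, chr11:120348556-120348605, minus strand: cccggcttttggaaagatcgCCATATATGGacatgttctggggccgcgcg
Vcl, chr14:20929151-20929200, plus strand: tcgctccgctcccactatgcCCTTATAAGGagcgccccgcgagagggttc
Actg1, the actin γ gene, had 96153 and 60178 counts and was 2.04-fold lower [2.02 to 2.06]. Among all genes called lower, 1.93% of those with a window held the letters, and among those called higher 1.85%.

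Genes that BMP and SMAD signaling induces were higher in 5 of 9 measured members (55.6%, against 6.7% of all genes). In the same list 1 was lower (11.1%, against 6.11%). Besides Id1, Id3 had 467 and 4166 counts and was 6.98-fold higher [6.34 to 7.7]. Smad6, an inhibitor of BMP signaling, had 160 and 1157 counts and was 5.66-fold higher [4.79 to 6.72], and Smad7, an inhibitor of TGF-β signaling, had 111 and 292 (2.06-fold higher, 1.65 to 2.59). Skil, a corepressor of SMADs, had 1078 and 4583 counts and was 3.33-fold higher [3.11 to 3.56]. Without G-1, Smad6 had 289 counts in the CON-1 library and 371 in the IL4 library, and Id3 had 760 and 1103. Hey1 was the lower member, with 27 and 9 counts.

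Genes of splicing regulators were higher in 9 of 23 members (39.1%, against 6.7% of all genes) and lower in 0. Rsrp1 had 1397 and 8835 counts and was 4.95-fold higher [4.68 to 5.24], and Clk1, a kinase of SR proteins, had 634 and 3125 and was 3.86-fold higher [3.54 to 4.21]. Their median GC content was 42.8%, against 49.6% over the measured genes, and 6 of 23 were still higher after length and GC trends were removed. Zinc finger genes with a Zfp symbol had a median GC of 43.9%. They were higher in 41 of 325 (12.6%, against 6.7% of all genes) and lower in 8 (2.46%, against 6.11%). With length and GC trends removed, 22 of 324 were higher and 9 lower, beside 668 and 546 of all 11025 genes. Of 17 measured clock genes, 4 were higher (23.5%) and 3 lower (17.6%), against 6.7% and 6.11% of all genes. Ciart had 5 and 74 counts (11.6-fold higher, 4.75 to 36.7), Nr1d1, which encodes the clock repressor REV-ERBα, had 76 and 284 (2.92-fold higher, 2.26 to 3.82) and Dbp, an output factor of the clock, had 216 and 774 (2.8-fold higher, 2.41 to 3.28). Npas2, the paralog of Clock, had 252 and 39 counts and was 8.26-fold lower [5.88 to 11.9].

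The fold varied with GC content across genes. Over 11025 measured genes with a GENCODE transcript, Spearman's rho of the log2 fold was -0.35 with GC content and -0.16 with transcript length, given as a description since genes are not replicates. The median log2 fold was 0.28 in the fifth of genes with the lowest GC and -0.26 in that with the highest. In the pair without G-1 the rho with GC was -0.33. The part of GC content in the list medians above was not tested beyond the removal of the trend, which left 668 genes higher and 546 lower.

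The same labels could be compared without G-1, in the IL4 and CON-1 libraries, which share no library with the pair under G-1. There 873 of 11333 genes were higher in the IL4 library (7.7%) and 753 were lower (6.64%). Of the genes measured in both pairs, 255 were higher in both, which is 33.9% of those higher under G-1 and 29.2% of those higher without it. Lower in both were 236, which is 34.4% and 31.3%. In opposite directions were 22 higher under G-1 and lower without it, and 22 lower under G-1 and higher without it. Of the 20 leading higher genes, 19 were also higher without G-1, and of the 20 leading lower genes 15 were also lower and 5 were not measured there.

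The lists differed between the pairs in several respects, which were not tested. Mitosis genes, 0 of 30 higher under G-1, were higher in 26 of 30 without G-1, where their median log2 fold was 2.16. S phase genes were higher in 18 of 30 without G-1. Interferon-stimulated genes were higher in 5 of 39 under G-1, and without G-1 0 of 43 were higher and 24 were lower. Cholesterol biosynthesis genes had a median of -0.51 under G-1 and 0.39 without it. Actin and adhesion genes, with 18 of 32 lower under G-1, had 3 of 32 lower and a median of -0.22 without it. Cd74 was lower in both pairs, and had 27636 counts in the CON-1 library and 509 in the IL4 library. Thbs1, a matrix protein that activates TGF-β, had 2288 and 2040 counts under G-1 (log2 fold -0.52) and 67465 and 1497 without it.

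**Figure D5:**
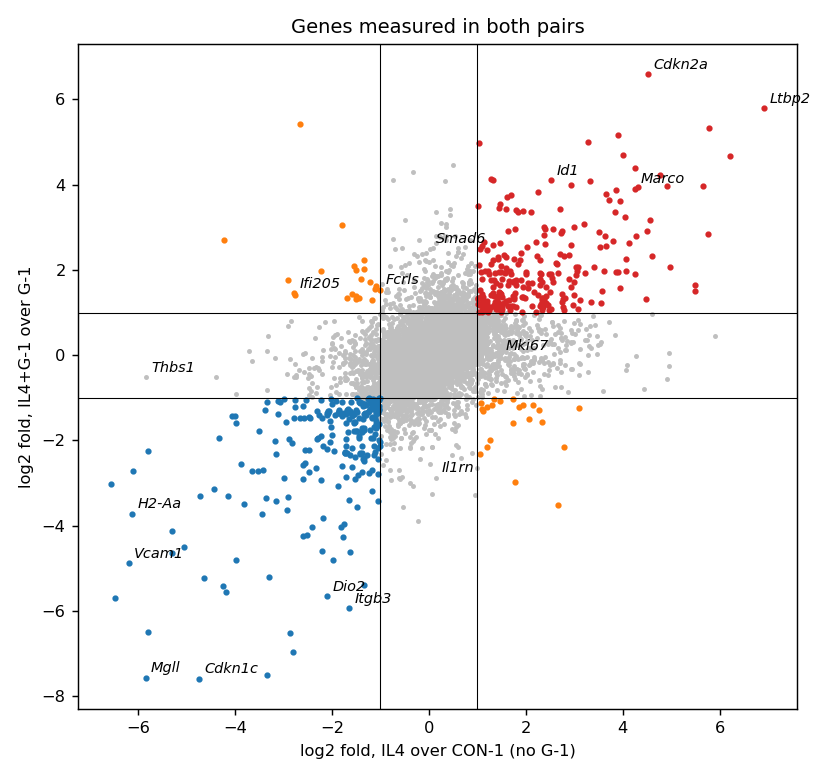
Log2 fold of IL4+G-1 over G-1 (vertical) against that of IL4 over CON-1 (horizontal) for the 10978 genes measured in both pairs, with lines at 2-fold; red dots are the 255 genes higher in both, blue the 236 lower in both and orange the 44 called in opposite directions. Cdkn2a, Ltbp2 and Marco lie in the upper right corner, and Cdkn1c, Mgll and Vcam1 in the lower left.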

How the data were processed

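The authors pooled 3 samples per group, used the VAHTS Universal V6 kit and paired-end sequencing, and deposited whole-number counts for each gene symbol. According to the submitters' processing notes, mm10 and DESeq2 were used. Which aligner and counter were used, and whether strand was, is not given in the sources used here. Per library the counts summed to 37000838 (G-1) and 38681822 (IL4+G-1).

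Within the pair, counts were scaled with TMM factors of edgeR 4.0.16 (R 4.3.3). A gene was measured at 20 or more counts in the library with more and called at 2-fold. A 0 was set to a floor of 3 counts and printed as a bound, and no fold was given with both libraries at or under the floor. Exact 95% binomial intervals came from scipy 1.17.1. With 1 library a side no test was run. The code was tested on simulated counts.

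Named were the 20 largest folds each way at 100 or more counts without predicted genes, all members of the 3 IL-4 lists, up to 5 called members each way of each other list, and receptors and markers. Others, among them the lists said to be so, were chosen after values were seen. Members and lists were chosen with earlier results of these data known. Of the listed symbols, 6 were not matched. Alternatives were DESeq2 1.42.0 size factors, library totals, a prior count of 5, no minimum or one of 100 counts, a 4-fold threshold, the near bound of the interval and running medians over 501 genes of length and, added after seeing the data, GC content. Lengths and GC came from GENCODE M21, coordinates and promoters from RefSeq.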

Additional observations from a re-analysis of the deposited data

Results flagged for a closer look

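Among the named genes, 3 were called in opposite directions by the pair under G-1 and the pair without it, and the difference between the pairs was not tested. Ccr3, a chemokine receptor, had a log2 fold of 1.31 for IL4+G-1 over G-1 and of -1.50 for IL4 over CON-1. Fcrls, an Fc receptor-like gene, had 1.53 and -1.01. Ifi205, an interferon-inducible gene, had 1.45 and -2.78, with 6 and 21 counts in the pair under G-1.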

How the results depend on the processing

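No paired analysis was possible because each group has 1 library. Counts of genes moved with the minimum, the threshold and the scaling. Higher in the library labelled IL4+G-1 were 753 genes, and 1303 with library totals, 429 at a minimum of 100 counts, 1151 with no minimum, 365 by the near bound of the interval and 203 at 4-fold. Lower were 686, and 450 with library totals and 198 at 4-fold. DESeq2 size factors, the prior count and the removal of the length trend, or of length and GC trends, kept both counts within 1.5 times. Of 235 named genes with a fold, 11 changed sign with library totals, 7 after length and GC removal and 1 after length removal, and 0 of these were called at 2-fold. By the near bound of the interval 31 no longer passed 2-fold, after length and GC removal 21 and with library totals 20. At a minimum of 100 counts 203 of the 235 were left, and the 4-fold threshold was applied to the counts of genes only. List medians changed sign in 11 of 51 lists with library totals in 6 after length and GC removal, in 5 after length removal, in 4 with no minimum and in 5 of 49 at a minimum of 100 counts. Depth limits the genes with few counts: the IL4+G-1 library had 3 counts of Mgll and 1 of Slc6a12, and the intervals of their folds span more than 10 times. The spread between samples could not be measured, and the sequencing set cannot be told apart from the label.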

Other observations

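Kap, a gene named for its expression in kidney, was listed at 0 counts in 6 of the 8 libraries, the co-cultured tubular cells included. It had 153 counts in the library labelled IL4+G-1 and 208 in the library labelled IL4.

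Gpnmb, a lysosomal glycoprotein gene, was the most abundant gene of the G-1 library with 2.75% of its counts, and Ftl1, the ferritin light chain gene, was the most abundant of the IL4+G-1 library with 2.06%.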
